A study of Mus musculus with 8 samples.

Results

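The transcription factor gene Nfe2l2, which encodes NRF2, and 9 of its antioxidant target genes were followed through 8 bulk RNA-sequencing libraries of mouse skin. The 10 genes were taken by gene symbol from a table of 24612 genes, and all 10 were found. All 10 also passed a filter on low values (at least 10 in at least 2 libraries), which 23185 genes passed. Per the labels, the mice were male C57BL/6J animals whose treatment began at 6 weeks of age. Total RNA was taken from homogenised skin after 21 days. The PBS group (libraries PBS 2 and PBS 3) received 0.1 mL of phosphate-buffered saline under the skin, and the bleomycin group (Bleomycin 2, 3 and 4) received 0.1 units of bleomycin under the skin. The celastrol group (Celastrol 2, 3 and 5) received celastrol by daily injection into the peritoneum, at a dose of 1 or 2 mg/kg. Which dose a single celastrol library stands for, and whether bleomycin was given as well, is not in the labels. Nothing in the labels says whether each library is a separate mouse, so the p-values measure the spread between these libraries, which may be technical.

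NRF2 is a transcription factor that is held low in unstressed cells by KEAP1, an adaptor that passes it to a ubiquitin ligase. Oxidants and electrophiles modify cysteines of KEAP1, NRF2 then escapes degradation, pairs with a small MAF protein in the nucleus and binds antioxidant response elements near its target genes. Because this control acts on the protein, the messenger RNA of Nfe2l2 need not follow NRF2 activity. In skin, NRF2 is known for protecting keratinocytes from oxidants and for its part in wound repair. Bleomycin, a glycopeptide that breaks DNA with the help of iron and oxygen, is used under the skin as a model of dermal fibrosis. Celastrol is a plant triterpenoid that reacts with thiols and is known from cultured cells for inducing heat shock genes.

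None of the 10 genes passed the test across all genes in any of the 3 comparisons. Gsta3, a glutathione transferase, was higher in each celastrol library than in any PBS or bleomycin library, though Celastrol 5 exceeded Bleomycin 2 by little. Nfe2l2 was modestly higher in each bleomycin and celastrol library than in both PBS libraries, and Slc7a11, the cystine importer, was higher in each celastrol library than in both PBS libraries. Such non-overlap was seen in 26.9% of all genes tested for celastrol against PBS and in 23.6% for bleomycin against PBS. For celastrol against bleomycin it was seen in 8.73%. Gclc and Gclm, the subunits of the enzyme that limits glutathione synthesis, overlapped between all 3 groups. Nqo1 and Slc7a11 each had their highest value in Bleomycin 3. Gsr and Hmox1 separated the deeper from the shallower libraries, as did 4.91% of all genes tested.

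The antioxidant response element core is written here as TGACNNNGC, where N is any base, and it was searched on both strands. The search ran over windows from 250 bases before to 50 bases after each transcript start of the RefSeq table (build GRCm38.p6). Windows were found for 7 of the 10 genes (all except Gclc, Gsr and Hmox1), and 5 of the 7 held at least 1 match. Over all 32851 windows of that length, 12.4% held a match, and over the 14643 genes of the expression table with a window, 15.8% did. The matches are shown because they are the letters through which these genes are counted as carrying the element close to their start. Each is printed on the strand of its gene with 10 flanking bases on each side. The capitals mark the match, which reads GCNNNGTCA where it lies on the opposite strand.
Nfe2l2 (chr2:75704885-75704913, minus strand): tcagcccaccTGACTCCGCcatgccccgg
Gclm (chr3:122245413-122245441, plus strand): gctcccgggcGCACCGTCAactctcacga
Gsta3 (chr1:21240454-21240482, plus strand): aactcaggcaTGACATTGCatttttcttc
Txnrd1 (chr10:82859104-82859132, plus strand): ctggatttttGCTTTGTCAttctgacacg
Srxn1 (chr2:152105542-152105570, plus strand): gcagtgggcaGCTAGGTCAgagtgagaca
The Txnrd1 match lies in the window of only 1 of its 3 listed starts.

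A second motif, TGACTCA, is the site of AP-1 and forms the inner part of many antioxidant response elements. Searched on both strands, it was found in 1 of the 7 genes, Srxn1, with 2 matches. Over all windows 5.20% held it, and over the genes of the table with a window 5.46% did. The 2 Srxn1 matches read TGAGTCA on the strand of the gene, which is the same site on the opposite strand, and neither overlaps its other match above.
Srxn1 (chr2:152105412-152105438, plus strand): tcggagggccTGAGTCAccacgctgtg
Srxn1 (chr2:152105469-152105495, plus strand): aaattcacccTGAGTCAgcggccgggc
A match is a description of the letters, and no binding of NRF2 or AP-1 was measured.

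The values are the authors' DESeq2-normalised signals, linear and not divided by gene length. Their sums per library lay between 22917554 and 26381997, and the depth estimated from the value of a single read lay between 14900000 (Celastrol 3) and 37100000 reads (Celastrol 5). The deeper libraries were PBS 2, Bleomycin 2, Bleomycin 4 and Celastrol 5, and the shallower ones PBS 3, Bleomycin 3, Celastrol 2 and Celastrol 3. The fewest estimated reads behind a value of the 10 genes were 60, for Nqo1. Celastrol 2 stood apart from the other libraries on the first principal component of all genes, at 237.5 against -57.3 to -3.63. Defining keratinocyte genes of skin were present: 7 of 7 basal and 10 of 11 listed names of differentiated keratinocyte markers were in the table. The absent name, Loricrin, is another name of Lor, which was in the table. None of the markers in the table was at 0 in any library. Summed markers of some other cell types differed between groups. Summed fibroblast markers were 1.48% to 3.26% of all values in PBS, 0.132% to 0.461% in bleomycin and 0.113% to 0.303% in celastrol, and summed skeletal muscle markers were 0.331% to 0.397%, 0.408% to 0.641% and 0.729% to 0.906%. The collagen genes Col1a1, Col1a2 and Col3a1 made up most of the fibroblast sum in PBS. Pdgfra, a fibroblast marker that is not a collagen, had 4587 and 4223 in PBS and between 721 and 2191 in all other libraries. Fewer cells of a type and less RNA per cell cannot be told apart in such bulk libraries, and the part of these shifts in the results on the 10 genes was not tested.

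Per kilobase of exon (the union of exons in GENCODE M21), Nfe2l2 had the highest mean level of the 10 genes, 694 over the 8 libraries with a range of 549 to 878. Hmox1 followed at 372 (267 to 508), Txnrd1 at 332 (257 to 408) and Gclc at 273 (224 to 319). Srxn1 had 167 (86.9 to 273), Gsr 129 (69.1 to 196), Nqo1 123 (65.2 to 285) and Gclm 111 (87.6 to 130). Gsta3 at 61.2 (27.7 to 127) and Slc7a11 at 50.3 (20.1 to 127) were the lowest. Only the range of Nfe2l2 stood clear of its neighbour in this order, and every other pair of neighbours overlapped.

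The genes also differed in how far they varied over the 8 libraries. The ratio of the highest to the lowest library was 6.30 for Slc7a11, 4.61 for Gsta3, 4.38 for Nqo1, 3.14 for Srxn1 and 2.83 for Gsr. It was 1.91 for Hmox1, 1.60 for Nfe2l2, 1.59 for Txnrd1, 1.49 for Gclm and 1.43 for Gclc. Among all tested genes, Gclc lay at the 6.51 percentile of this range on the log2 scale and Gclm at the 8.86 percentile, while Slc7a11 lay at the 66.8 percentile. Txnrd1 and Nfe2l2 were also low, at the 13.0 and 13.5 percentiles, and the percentiles were not matched for expression level. The pair that makes up glutamate-cysteine ligase was therefore among the steadier genes of the table, and the cystine importer Slc7a11 was the most variable of the 10. That place of Slc7a11 rests on Bleomycin 3 (1765). In the other libraries it lay between 280 and 762, a narrower ratio than that of Gsta3 (128 to 553).

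**Figure D1:**
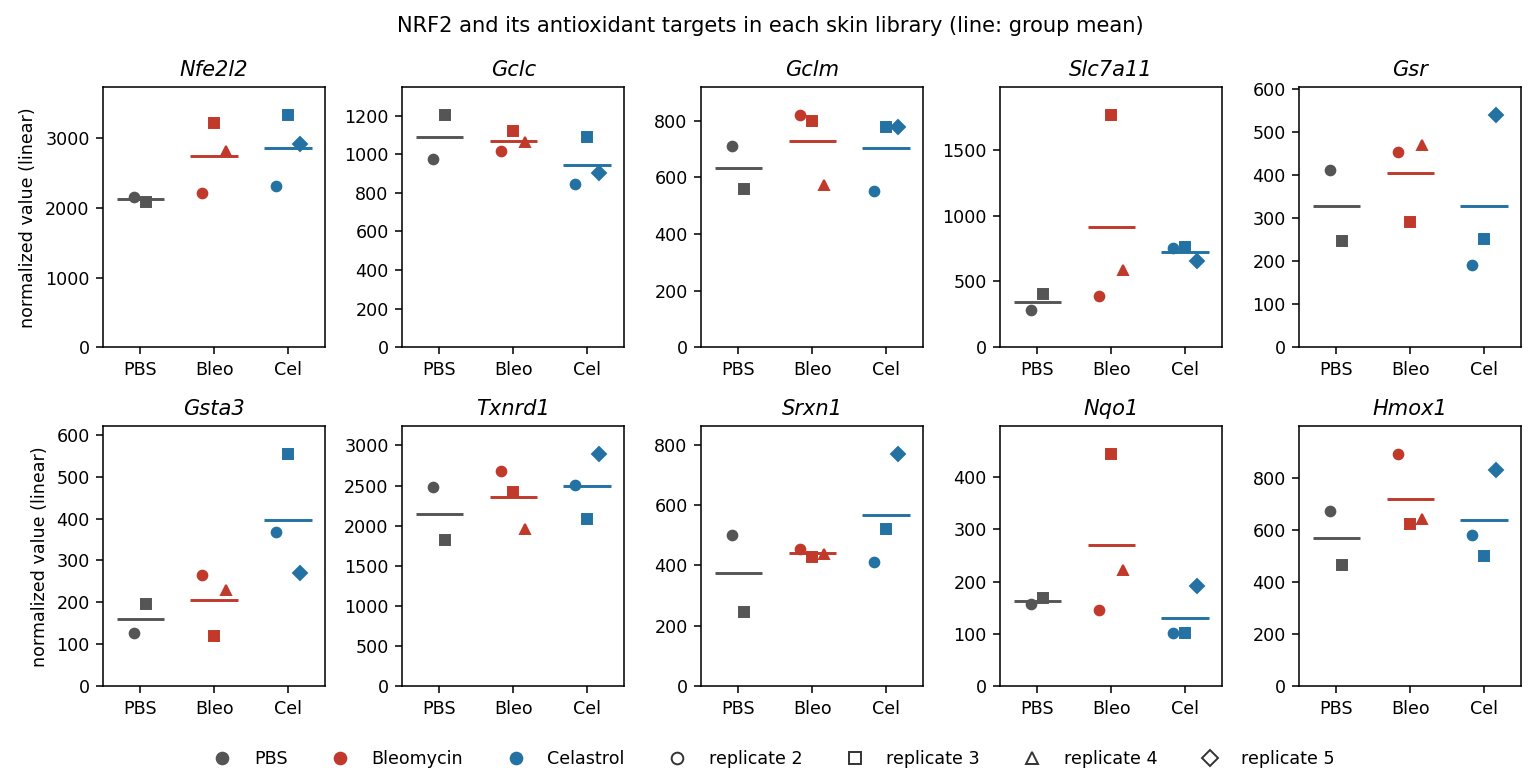
Deposited normalised value (linear, vertical axis from 0) of each of the 10 genes in each library, by group, where the marker gives the replicate number and the line the group mean. Gsta3 is higher in the 3 celastrol libraries (270 to 553) than in all others, and Slc7a11 and Nqo1 peak in Bleomycin 3 at 1765 and 443.

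Nfe2l2 itself (chr2:75675513-75704641 in GRCm38, minus strand) had values of 2160 and 2085 in PBS 2 and PBS 3. It had 2215, 3215 and 2816 in Bleomycin 2, 3 and 4, and 2316, 3332 and 2924 in Celastrol 2, 3 and 5. All 6 treated libraries lay above both PBS libraries, although Bleomycin 2 exceeded PBS 2 by little, and the bleomycin and celastrol libraries overlapped. The means were 2123 ± 52.8 (SD, n = 2), 2749 ± 503 (SD, n = 3) and 2857 ± 511 (SD, n = 3). The log2 difference was 0.36 ± 0.21 (SE) for bleomycin over PBS, with limma's adjusted p = 0.991 and a 95% interval of -0.11 to 0.83. It was 0.41 ± 0.21 for celastrol over PBS, with limma's adjusted p = 0.490, and 0.06 ± 0.19 for celastrol over bleomycin.

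Glutathione synthesis starts with glutamate-cysteine ligase, made of the catalytic subunit Gclc and the modifier subunit Gclm. Gclc (chr9:77754535-77794485) had 976 and 1203 in PBS, 1018, 1119 and 1064 in bleomycin and 844, 1092 and 901 in celastrol. PBS 3 was its highest and Celastrol 2 its lowest library, and the 3 groups overlapped. Gclm (chr3:122245557-122270732) had 709 and 559 in PBS, 819, 797 and 571 in bleomycin and 551, 779 and 776 in celastrol. Its lowest values, in PBS 3, Bleomycin 4 and Celastrol 2, came from all 3 groups. Gclm overlaps the predicted genes Gm6061 on its own strand and Gm17494 on the other. Gm17494 had its lowest value in Celastrol 5 (140) and its highest in Celastrol 2 (307). As the use of strand in counting is not given, reads of these genes cannot be told apart from those of Gclm. For Gclc the log2 difference was -0.02 ± 0.20 for bleomycin over PBS and -0.21 ± 0.20 for celastrol over PBS, and for Gclm it was 0.19 ± 0.27 and 0.14 ± 0.27. The subunits did not move together across libraries (Pearson r = 0.04 over 8 libraries, of which the normalisation is shared). Without Celastrol 2 their r was -0.46.

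Slc7a11 is the light chain of the cystine-glutamate exchanger, which brings in the cystine from which glutathione is built. The gene (chr3:49892526-50443614, minus strand) had 280 and 407 in PBS and 754, 762 and 657 in celastrol. In bleomycin it had 385, 1765 and 589. The celastrol libraries lay close together above both PBS libraries, whereas Bleomycin 2 fell between the PBS libraries and Bleomycin 3 was 2.32 times the next highest library. The means were 343 ± 89.6 (SD, n = 2) in PBS, 913 ± 744 (SD, n = 3) in bleomycin and 724 ± 58.1 (SD, n = 3) in celastrol. The log2 difference was 1.10 ± 0.51 for celastrol over PBS (95% interval -0.03 to 2.22, limma adjusted p = 0.431). It was 1.13 ± 0.51 for bleomycin over PBS (0.00 to 2.25, limma adjusted p = 0.729) and -0.03 ± 0.45 for celastrol over bleomycin. Without Bleomycin 3 the bleomycin over PBS difference was 0.50 and the celastrol over bleomycin difference 0.60, while without Bleomycin 2 the latter was -0.50. Slc7a11 spans 551 kb and overlaps predicted genes on both strands, and since the use of strand in counting is not given in the sources used here, reads of those genes cannot be told apart from its own.

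Gsr, glutathione reductase, returns oxidised glutathione to its reduced form at the cost of NADPH. It (chr8:33652523-33698163) had 411 and 246 in PBS, 454, 291 and 470 in bleomycin and 190, 251 and 539 in celastrol. The spread within each group was as wide as that between groups, and no pair of groups was separate. The log2 difference of celastrol over PBS was -0.11 ± 0.45, and its sign turned with the library left out, from -0.54 to 0.26.

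Gsta3 belongs to the alpha class of glutathione transferases, which join glutathione to electrophiles. The gene (chr1:21240589-21265661) had 128 and 195 in PBS, 265, 120 and 228 in bleomycin and 368, 553 and 270 in celastrol. The lowest celastrol library, Celastrol 5, exceeded the highest bleomycin library, Bleomycin 2, by little, and PBS and bleomycin overlapped. The means were 161 ± 47.6 (SD, n = 2), 205 ± 75.3 (SD, n = 3) and 397 ± 144 (SD, n = 3). The log2 difference was 1.26 ± 0.45 for celastrol over PBS (95% interval 0.26 to 2.26, limma adjusted p = 0.279). It was 0.97 ± 0.41 for celastrol over bleomycin (0.07 to 1.87, limma adjusted p = 0.975) and 0.29 ± 0.45 for bleomycin over PBS. Without Bleomycin 3, where Gsta3 was lowest, these were 0.63 for celastrol over bleomycin and 0.64 for bleomycin over PBS. Alpha-class transferases are close in sequence, so how reads were divided among them is uncertain.

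Txnrd1, cytosolic thioredoxin reductase, and Srxn1, the sulfiredoxin that repairs overoxidised peroxiredoxins, serve the thioredoxin branch. Txnrd1 (chr10:82833951-82897712) had 2477 and 1823 in PBS, 2687, 2421 and 1955 in bleomycin and 2505, 2087 and 2890 in celastrol. Srxn1 (chr2:152105516-152111376) had 502 and 245 in PBS, 453, 429 and 439 in bleomycin and 412, 520 and 768 in celastrol. For both genes PBS 3 was the lowest library and Celastrol 5 the highest, and the groups overlapped. The log2 difference of celastrol over PBS was 0.22 ± 0.22 for Txnrd1 and 0.64 ± 0.36 for Srxn1, the latter with limma's adjusted p = 0.534. For bleomycin over PBS it was 0.14 ± 0.22 for Txnrd1 and 0.33 ± 0.36 for Srxn1. Without PBS 3 the Srxn1 difference of bleomycin over PBS was -0.19, and without PBS 2 it was 0.84. Txnrd1 holds the gene Eid3 on its own strand and overlaps predicted genes on the other.

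Nqo1 reduces quinones by the transfer of an electron pair and is a widely used readout of NRF2, and Hmox1 breaks down heme and is also held down by the repressor BACH1. Nqo1 (chr8:107388225-107403206, minus strand) had 156 and 168 in PBS, 145, 443 and 222 in bleomycin and 102, 101 and 191 in celastrol. Bleomycin 3 was 2.00 times the next library, while Celastrol 2 and Celastrol 3 were the lowest of all, and the groups overlapped. The log2 difference was -0.95 ± 0.47 for celastrol over bleomycin (95% interval -1.98 to 0.08, limma adjusted p = 0.975), 0.58 ± 0.52 for bleomycin over PBS and -0.37 ± 0.52 for celastrol over PBS. Without Bleomycin 3 the celastrol over bleomycin difference was -0.52 and the bleomycin over PBS difference 0.15. Hmox1 (chr8:75093621-75100589) had 673 and 467 in PBS, 890, 623 and 643 in bleomycin and 579, 499 and 831 in celastrol. Its groups overlapped, and its log2 differences were 0.34 ± 0.30 for bleomycin over PBS, -0.19 ± 0.26 for celastrol over bleomycin and 0.15 ± 0.30 for celastrol over PBS.

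**Figure D2:**
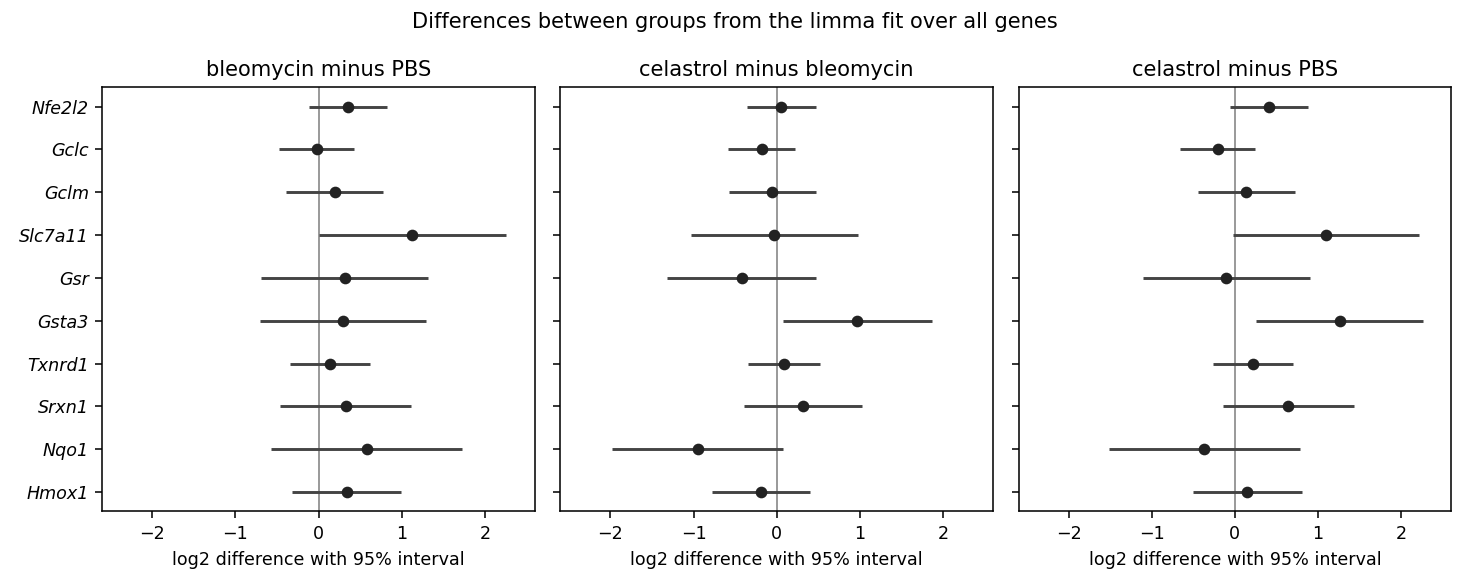
Log2 difference of each gene (horizontal axis, on log2 of the value plus 1) in the 3 comparisons, where points are limma estimates and bars their 95% intervals. For celastrol over PBS the interval of Gsta3 (0.26 to 2.26) lies above 0 and that of Slc7a11 (-0.03 to 2.22) reaches just below it, and no gene passed after adjustment over all genes.

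For bleomycin against PBS, 0 of the 10 genes passed limma's adjusted p, where 157 of the 23185 genes tested passed (0.677%). At an unadjusted p under 0.05 only Slc7a11 passed, against 6.82% of all genes, and only Nfe2l2 had groups that did not overlap, against 23.6%. The share of the 10 genes was thus near or below that of all genes. Their median log2 difference was 0.32, beside a median of -0.00072 over all genes. Of the 10 genes, 9 were above 0 and 1 (Gclc) below, where 49.9% of all genes were above 0. The 10 differences rest on the same PBS libraries, so their signs are not independent of each other. Without PBS 3 the median of the 10 genes was 0.10, and without PBS 2 it was 0.46.

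For celastrol against bleomycin, 0 of the 10 genes and 0 of all genes (0%) passed limma's adjusted p. Gsta3 alone passed an unadjusted p under 0.05, against 3.87% of all genes, and it alone had groups that did not overlap, against 8.73%. Their median log2 difference was -0.04, with 4 above 0 and 6 below, beside -0.04 over all genes, of which 46.3% were above 0. The ends of the list were Gsta3 at 0.97 and Nqo1 at -0.95.

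For celastrol against PBS, 0 of the 10 genes passed limma's adjusted p, where 317 genes passed (1.37%). Gsta3 alone passed an unadjusted p under 0.05, against 12% of all genes. The groups did not overlap for Gsta3, Nfe2l2 and Slc7a11, all higher in celastrol, a share near the 26.9% of all genes. The median log2 difference was 0.18, beside -0.07 over all genes, and without PBS 3 it was -0.02. Of the 10 genes, 7 were above 0 and 3 below, where 45.6% of all genes were above 0. The comparisons with PBS share both PBS libraries, and the bleomycin libraries enter 2 of the 3 comparisons, so they are not independent of each other. Without Celastrol 2, the library that stood apart, the celastrol over PBS difference was 1.29 for Gsta3, 1.07 for Slc7a11 and 0.56 for Nfe2l2. None of the 10 genes passed the adjusted test in any of the 20 other fits tried.

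Depth moved with some of the genes. Gsr lay between 411 and 539 (mean 468 ± 53.0, SD, n = 4) in the 4 deeper libraries and between 190 and 291 (245 ± 41.6, SD, n = 4) in the 4 shallower ones. Hmox1 lay between 643 and 890 (759 ± 120) in the deeper and between 467 and 623 (542 ± 71.9) in the shallower libraries. Both were separate between the depth classes, at ratios of 1.91 and 1.40, while the other 8 genes overlapped. Of all genes tested, 4.91% were separate in the same way. Each depth class holds libraries of all 3 groups, and the part of depth in these values was not tested.

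**Figure D3:**
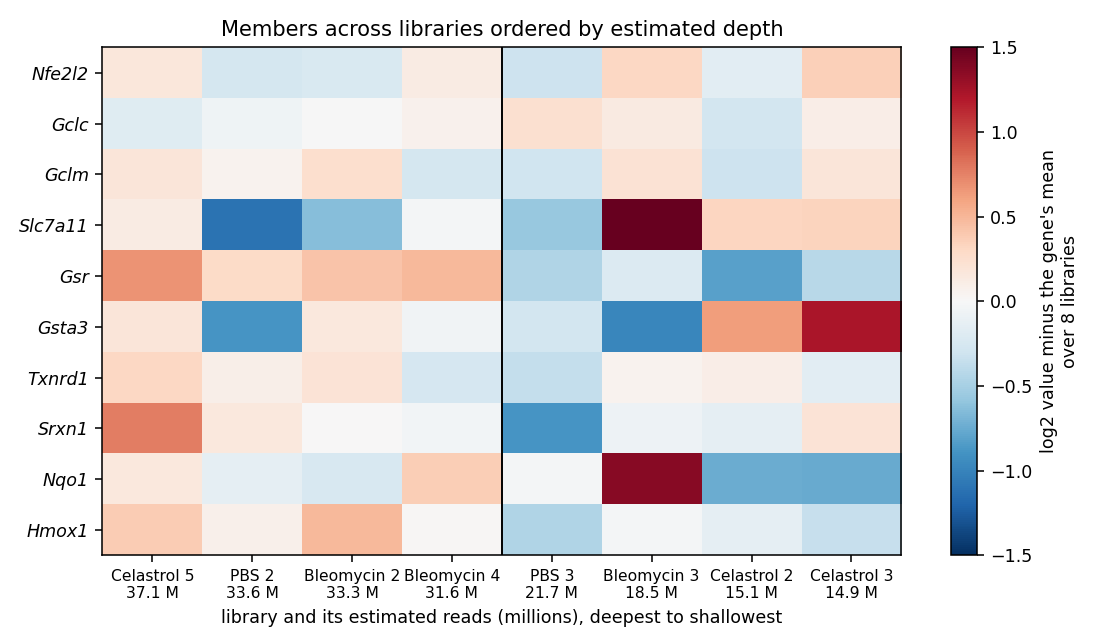
Heatmap of the 10 genes (rows) in the 8 libraries ordered from deepest to shallowest (columns), where the colour is log2 of the value plus 1 minus the mean of the gene and a line parts the 4 deeper from the 4 shallower libraries. Gsr and Hmox1 are above their means on the deeper side and below them on the shallower side.

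Within depth classes, the celastrol over PBS difference had the same sign in both classes for 8 of the 10 genes, and it turned for Gsr and Nqo1. For bleomycin over PBS 5 of the 10 had the same sign in both, and for celastrol over bleomycin 3 did. The same share over all genes was not computed, so these counts say nothing particular about the 10 genes. Gsta3 differed by 1.07 on the log2 scale in the deeper libraries and 1.20 in the shallower ones, Slc7a11 by 1.23 and 0.90, Srxn1 by 0.61 and 0.91, and Nfe2l2 by 0.44 and 0.41. Txnrd1, Gclm and Hmox1 were higher in celastrol in both classes by 0.13 to 0.33, and Gclc was lower in both, at -0.12 and -0.33. Gsr had 0.39 in the deeper and -0.17 in the shallower libraries, and Nqo1 had 0.28 and -0.72. For celastrol over bleomycin, Gsta3 differed by 0.13 in the deeper and 1.90 in the shallower libraries, and Nqo1 by 0.086 and -2.12. Those wide differences rest on Bleomycin 3, the only shallower bleomycin library. With 1 PBS library in each class these are values with no test.

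Bleomycin 3 had the highest value of 2 of the 10 genes, Slc7a11 and Nqo1, and the lowest of Gsta3 (120). Over the 10 genes and the other lists of the pathway and of stress, it was the highest library for 12 of 110 genes, and over all genes tested for 13.8%, so it was not high for these genes as a whole. Genes chosen after their values were seen were also high there. Gsta4, an alpha-class transferase that clears lipid aldehydes, had 2108 in Bleomycin 3 against 1136 in the next library and 233 and 106 in PBS. Akr1b8, an aldo-keto reductase, had 625 against 332 in the next library. The other libraries had Akr1b8 between 197 and 332, with PBS and celastrol overlapping. Bleomycin 3 also had the highest summed level of the wound keratinocyte markers Krt6a, Krt6b, Krt16, Krt17, Sprr1b and Sprr2d. The summed share of these markers in all values was 0.626% in Bleomycin 3, 0.0785% and 0.110% in Bleomycin 2 and 4, 0.189% to 0.389% in celastrol, and 0.0397% and 0.00912% in PBS 2 and PBS 3. All 6 markers were in the table, and Sprr2d was at 0 in PBS 3.

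Correlations with that marker share were taken with both the share and the gene value on the log2 scale. Over the 8 libraries, Slc7a11 had a Pearson r of 0.80 and a Spearman rho of 0.90 with the share. Its r was 0.77 without Bleomycin 3, and 0.95 without both PBS 3 and Bleomycin 3. On the log2 scale these libraries lay farthest from the median share. Nfe2l2 had r = 0.73 and rho = 0.81, with r = 0.65 and 0.53 in the same exclusions. Gsta3 had r = 0.27 and rho = 0.26, and r rose to 0.72 and 0.87 in those exclusions. Nqo1 had r = 0.17, which turned to -0.45 and -0.53. The other 6 genes had r between -0.40 (Gclc) and 0.54 (Srxn1). Gsta4 had r = 0.94, with 0.93 and 0.91 in the exclusions. Akr1b8 had r = 0.55, which was 0.29 without Bleomycin 3 and 0.74 without both. The libraries share treatment group and normalisation, these correlations are descriptions, and the part of wound keratinocytes in the values of Slc7a11, Nfe2l2 or Gsta3 was not tested.

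**Figure D4:**
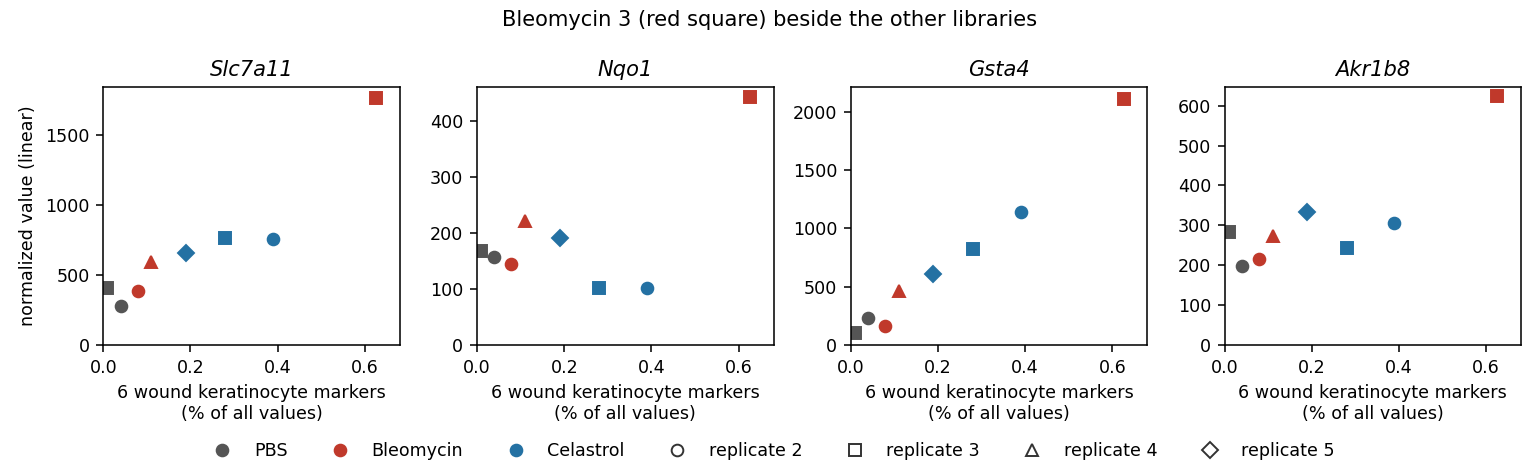
Deposited value of Slc7a11, Nqo1, Gsta4 and Akr1b8 (vertical axes) against the summed share of 6 wound keratinocyte markers in all values (horizontal axis, percent), 1 point per library and coloured by group. Slc7a11 and Gsta4 are low in the PBS libraries and highest in Bleomycin 3, while Nqo1 is high in Bleomycin 3 only.

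Pairs of the 10 genes differed in how far they moved together. Over the 45 pairs the median Pearson r across the 8 libraries (on log2 of the value plus 1) was 0.13, with 31 above 0 and 14 below. The same median over pairs of all genes was not computed. The highest were Txnrd1 with Hmox1 (0.80), Gsr with Hmox1 (0.79) and Nfe2l2 with Slc7a11 (0.77). Gsr and Hmox1 are the genes that were separate between the deeper and shallower libraries, and the part of depth in their r was not tested. The lowest r values were those of Gsta3 with Nqo1 (-0.75) and Gclc with Txnrd1 (-0.73). Slc7a11 with Nqo1 had 0.50, which fell to -0.34 without Bleomycin 3. Some pairs also shifted without Celastrol 2. Gclc with Gsr went from -0.10 to -0.84 and Gclc with Srxn1 from -0.58 to -0.88, while Gclm with Txnrd1 rose from 0.58 to 0.79. Over all tested genes with a mean of at least 50 (16627 genes), those most like Nfe2l2 were Noc3l (r = 0.98), Gm39090 (0.98), Ms4a7 (0.98), Eif1a (0.97) and Skil (0.97). Without Celastrol 3 these stood between 0.95 and 0.99. They were picked as the highest of that many genes over only 8 libraries, so picking alone can give such values. The values without Celastrol 3 are for genes already picked with these libraries, and shared control with Nfe2l2 was not tested.

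Keap1, the repressor of NRF2, had 499 and 136 in PBS, 508, 328 and 323 in bleomycin and 363, 278 and 341 in celastrol. The PBS libraries alone spanned nearly the whole range of Keap1, and its log2 difference was 0.54 for bleomycin over PBS and 0.32 for celastrol over PBS. Bach1, which represses Hmox1 and other heme-linked genes, had log2 differences of 0.14 and 0.31 in the same comparisons. Btrc, the substrate adaptor of a second ligase for NRF2, had -0.59 ± 0.25 for celastrol over PBS (limma adjusted p = 0.382). Of the 12 regulators listed, 0 passed limma's adjusted p in any comparison, and at an unadjusted p under 0.05 Btrc alone did, in celastrol against PBS. In that comparison 12% of all genes tested passed the unadjusted threshold.

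Further genes of the pathway came from lists of the regulators, NADPH supply, glutathione use and conjugation, thioredoxin targets, heme and iron, and carbonyl and quinone reduction. Of their 57 genes 56 were tested. None passed limma's adjusted p for bleomycin against PBS, where 3 were higher and 2 lower at an unadjusted p under 0.05, nor for celastrol against bleomycin, where 0 did. For celastrol against PBS 1 passed, Abcc4, an exporter of conjugates and cyclic nucleotides, and 3 were higher and 3 lower at an unadjusted p under 0.05. Of all genes tested, 0.677% passed limma's adjusted p for bleomycin against PBS and 1.37% for celastrol against PBS. The shares at an unadjusted p under 0.05 were 6.82% for bleomycin against PBS, 3.87% for celastrol against bleomycin and 12% for celastrol against PBS. For celastrol against PBS the calls of the lists were thus near the shares of all genes. The median log2 difference over the lists was -0.02 for bleomycin over PBS, 0.07 for celastrol over bleomycin and 0.05 for celastrol over PBS, beside -0.00072, -0.04 and -0.07 over all genes.

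Abcc4 fell, from 2458 and 2140 in PBS to 1117, 1065 and 1143 in celastrol, and had 1374, 1041 and 999 in bleomycin. Both PBS libraries lay above all 6 others. The log2 difference was -1.05 ± 0.20 for celastrol over PBS (limma adjusted p = 0.0344) and -1.03 for bleomycin over PBS (adjusted p = 0.0519). The call was lost without PBS 2 (adjusted p = 0.222), PBS 3 (0.156), Bleomycin 4 (0.0596), Celastrol 2 (0.0917), Celastrol 3 (0.0751) or Celastrol 5 (0.0993), and held without Bleomycin 2 or Bleomycin 3.

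Other genes of these lists had wide differences that did not pass. Glrx, glutaredoxin, had 789 and 459 in PBS, 676, 2131 and 1163 in bleomycin and 2198, 1581 and 2363 in celastrol. Its celastrol libraries lay above both PBS libraries, with a log2 difference of 1.74 ± 0.42 and limma's adjusted p = 0.0844. Ugdh, which makes the UDP-glucuronate used in conjugation, had 2007 and 2074 in PBS and between 1203 and 1456 in the other 6 libraries, with a log2 difference of -0.64 for celastrol over PBS (adjusted p = 0.148). Blvra, biliverdin reductase, the step after heme oxygenase, had a log2 difference of 1.11 ± 0.45 for bleomycin over PBS (limma adjusted p = 0.621). Gsta4 had 1.77 for bleomycin over PBS (adjusted p = 0.770) and 2.39 for celastrol over PBS (adjusted p = 0.256).

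Paralogs of the 10 genes gave 0 of 9 past limma's adjusted p in any comparison. For celastrol over PBS, Hmox2, the constitutive heme oxygenase, had a log2 difference of 0.35, Nqo2 0.04, the mitochondrial reductase Txnrd2 -0.53 and Txnrd3 -0.32. The related factor Nfe2l3 had 0.61 (limma adjusted p = 0.364), with 549 and 610 in PBS and between 662 and 986 in the other 6 libraries. At an unadjusted p under 0.05, 1 of the 9 was higher in that comparison, a share near the 12% of all genes tested that passed there. None passed in the other comparisons, where 6.82% (bleomycin against PBS) and 3.87% (celastrol against bleomycin) of all genes did.

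Antioxidant enzymes outside the NRF2 lists gave 0 of 14 past limma's adjusted p in any comparison. Gpx3, the secreted glutathione peroxidase, had 5395 and 5393 in PBS, 2495, 1094 and 2488 in bleomycin and 1594, 2885 and 2596 in celastrol. Both PBS libraries lay well above the rest, with a log2 difference of -1.51 ± 0.36 for bleomycin over PBS and limma's adjusted p = 0.110. Gpx1, the cytosolic glutathione peroxidase, had 1038 and 997 in PBS and between 1284 and 2316 in the other 6 libraries, with a log2 difference of 0.74 for celastrol over PBS (adjusted p = 0.225).

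Slc7a11 is also a target of ATF4, the factor of the amino acid and unfolded protein stress response, and celastrol is known for heat shock genes, so both lists were set beside it. Of 10 ATF4 targets and 11 heat shock genes, 0 passed limma's adjusted p in any comparison. At an unadjusted p under 0.05, 6.82% of all genes passed for bleomycin against PBS and 12% for celastrol against PBS. Among ATF4 targets, 2 passed in the first of these comparisons and 1 in the other, all higher. Among heat shock genes, 1 and 3 passed, all higher. Hspa8, the constitutive HSP70, had 17030 and 17035 in PBS, 20892, 28825 and 27507 in bleomycin and 28546, 27202 and 34677 in celastrol. All 6 treated libraries lay above PBS, and the log2 difference of celastrol over PBS was 0.82 (limma adjusted p = 0.0780). Some inducible members of the list differed from Hspa8 in sign, and those given here were chosen after their values were seen. Bag3, a co-chaperone, had 1655 and 680 in PBS, 1718, 582 and 586 in bleomycin and 675, 643 and 524 in celastrol, with a log2 difference of -0.80 for celastrol over PBS (limma adjusted p = 0.571). Hspa1b had 1891 and 298 in PBS, 2124, 442 and 408 in bleomycin and 433, 308 and 617 in celastrol, with a log2 difference of -0.79 (limma adjusted p = 0.762). The near-identical Hspa1a had -0.42, and how reads were divided between the pair is uncertain. PBS 2 and Bleomycin 2 were the highest libraries for all 3 of these genes. Others of the list went with Hspa8 in sign. Hspe1 had a log2 difference of 0.73 for celastrol over PBS (limma adjusted p = 0.241). Hsph1 had 1079 and 1270 in PBS and 1341, 1815 and 1639 in celastrol. Celastrol and PBS did not overlap for 5 of the 11 genes with celastrol higher and for 2 with it lower. Of all genes tested, 26.9% did not overlap in either direction. The median of the heat shock list was 0.33 for celastrol over PBS and -0.04 for bleomycin over PBS.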

How the data were processed

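The authors deposited a normalised signal per gene and library, in which counts were divided by a DESeq2 size factor of the poscounts kind, per the file headers. Per the submitters' processing notes, the tools were STAR 2.7.3a, Partek 10.0.22 and DESeq2 with the mm10 build. The counter, the annotation and the use of strand are not given in the sources used here. Every listed gene reached at least 10.3 in some library. In each library 58.6% to 66.9% of values, those near 0 and the highest left out, were whole multiples of a single read (within 0.03 reads). Reads were therefore not recovered and no count test was run. Depths of 14900000 to 37100000 reads were estimated from that step.

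Log2 of the value plus 1 was tested with limma 3.58.1 in R 4.3.3 (moderated tests with a mean-variance trend), with all 8 libraries in a single fit and no covariate. A gene was kept where 2 or more libraries reached a value of 10, which left 23185 genes and removed 1427. The two-sided p-values were adjusted by the Benjamini-Hochberg method across those genes, and an adjusted p below 0.05 counted as a call. The procedure was tested on simulated data. Alternatives changed the pseudocount, filter, trend, library weights, scaling (quantile, and trimmed mean of M values), samples and covariates. Positions come from GENCODE M21 and promoter windows from RefSeq.

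The genes, the lists and the rule for names were chosen with earlier results of these data known. The rule named the 10 genes, their paralogs, Keap1, Bach1, list genes past the threshold, the up to 2 genes of each list with the smallest p, and the 5 genes most like Nfe2l2. Of these the text gives a selection, and cell marker lists are given as sums.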

Additional observations from a re-analysis of the deposited data

How the results depend on the processing

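None of the 30 differences (10 genes in 3 comparisons) passed the adjusted test in any of 20 alternatives, 600 values in all, and 36 of those values changed sign. Genes called for bleomycin against PBS were 157, and 711 with library weights, 17 with the replicate block, 7 without the trend, 46 with only both groups in the fit, 19 without Bleomycin 3 and Celastrol 2 together, and 16 (without Bleomycin 4) to 229 (without Bleomycin 2) when single libraries were left out. Leaving out PBS 2 gave 70, PBS 3 gave 18, Bleomycin 3 gave 33 and Celastrol 5 gave 103. For celastrol against bleomycin the 0 became 2 without the trend, 1 without Bleomycin 3 and Celastrol 2, and 0 to 1 with single libraries left out. For celastrol against PBS the 317 became 41 with the replicate block, 19 without the trend, 159 with only both groups, 90 without Bleomycin 3 and Celastrol 2, and 38 (without PBS 3) to 418 with single libraries left out. Leaving out PBS 2 gave 104, Bleomycin 4 gave 158, Celastrol 2 gave 143 and Celastrol 5 gave 39.

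Same-numbered libraries did not all deviate together (correlations -0.0049 to 0.203), so the numbers were not taken to pair them. Signs turned with library weights for bleomycin over PBS (Gclm -0.046, Txnrd1 -0.048), celastrol over bleomycin (Gclm 0.25, Slc7a11 0.18, Hmox1 0.0026) and celastrol over PBS (Gsr 0.13). They turned under quantile scaling for Nfe2l2 (celastrol over bleomycin, -0.0033), and with the replicate block for Txnrd1 (celastrol over bleomycin, -0.16) and Hmox1 (celastrol over PBS, -0.059). The depth covariate and the fit without Bleomycin 3 and Celastrol 2 were chosen after seeing the data. The first turned Hmox1 (celastrol over bleomycin, 0.013) and Gsr (celastrol over PBS, 0.29), the other Gclm (0.18) and Slc7a11 (0.57) for celastrol over bleomycin and Gsr (0.21) for celastrol over PBS. The causes were not tested.

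With single libraries left out, log2 ranges that crossed 0 for bleomycin over PBS were -0.17 to 0.13 (Gclc), -0.053 to 0.68 (Gsr), -0.0096 to 0.64 (Gsta3), -0.19 to 0.84 (Srxn1) and -0.086 to 0.36 (Txnrd1). For celastrol over PBS they were -0.033 to 0.31 (Gclm), -0.54 to 0.26 (Gsr), -0.11 to 0.41 (Hmox1) and -0.0030 to 0.44 (Txnrd1), and for celastrol over bleomycin -0.22 to 0.11 (Gclm), -0.091 to 0.20 (Nfe2l2), -0.50 to 0.60 (Slc7a11) and -0.045 to 0.20 (Txnrd1). Over all alternatives Gsta3 stayed between 0.96 and 1.57 for celastrol over PBS and Slc7a11 between 0.77 and 1.36. Abcc4 also lost its call with the replicate block (adjusted p = 0.117), without the trend (0.186), with depth as covariate (0.0529), with only both groups (0.0591) and without Bleomycin 3 and Celastrol 2 (0.129). Groups of 2 and 3 libraries and 60 reads at the least limit what could be detected.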
